A study of Gallus gallus with 20 samples.

Results

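Ion-pumping ATPases and lipid flippases were read from 1 RNA-seq library of adult chicken (Gallus gallus) kidney. The members were the genes whose symbol starts with ATP1A, ATP1B, ATP2A, ATP2B, ATP2C, ATP6V, ATP7, ATP8, ATP9, ATP10, ATP11, ATP13A or FXYD, with 2 of them set aside. This gave 40 of 19650 named genes. They fall into 5 sodium pump genes, 5 calcium pumps, 15 subunit genes of the vacuolar proton pump (V-ATPase), 1 copper pump, 9 flippases and 5 P5 ATPases. The RefSeq gene table of the GRCg7b assembly names 50 protein-coding genes with these prefixes beside those set aside, and 10 of them, a catalytic alpha subunit of the sodium pump among them, are not analysed here.

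The series holds 20 samples of kidney and testis, of which 19 are small RNA libraries that were not analysed here. The RNA-seq library was made from total RNA of adult kidney, and the labels give no strain, sex or treatment for it. It held 21832272 estimated reads over 79570 transcript rows. With 1 library there is no replicate, no group to compare and no p-value. All differences below are between genes of this library, and they are given as TPM, a share of transcripts on a scale that sums to 1000000 and allows for transcript length. Intervals are 95% intervals that cover counting error only.

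P-type ATPases form a phosphorylated intermediate during each cycle and move ions or lipids across membranes. The sodium pump of the basolateral membrane keeps cell sodium low and so powers reabsorption along the whole nephron. Calcium pumps fill the endoplasmic reticulum and Golgi or export calcium from the cell. V-ATPases are rotary machines that acidify endosomes and lysosomes everywhere, and in acid-secreting intercalated cells of the kidney they also move protons into the urine. Flippases, the P4 branch of the P-type family, move phospholipids to the cytosolic leaflet of membranes.

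Of the 40 members, 34 were detected, which here means a level of at least 1 TPM and no fewer than 3 reads. This is 85% of the members, beside 51.4% of all named genes and 70.5% of the 12681 genes whose symbol does not start with LOC. At 10 TPM or more there were 26 members (65%), beside 27.6% of all named genes and 40.3% of genes with such a symbol. The median level over the members was 19.3 TPM, beside 1.21 TPM over all named genes, 6.04 TPM over those with a symbol and 11.2 TPM over the detected genes. Together the members drew 0.494% of the library's reads. FXYD2 and ATP1B1 held 74.1% of the members' summed TPM and 40.9% of their reads, so the sums say little of the other members.

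The levels spread over more than a single order of magnitude within every group that has several members, apart from the V1 sector of the V-ATPase. Only FXYD2, ATP1B1 and ATP6V0A4 reached 100 TPM. The members under the detection threshold were ATP1B4, ATP2B2, ATP7B, ATP8B3, ATP13A4 and ATP13A5, and of these only ATP13A5 had no reads at all.

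**Figure D1:**
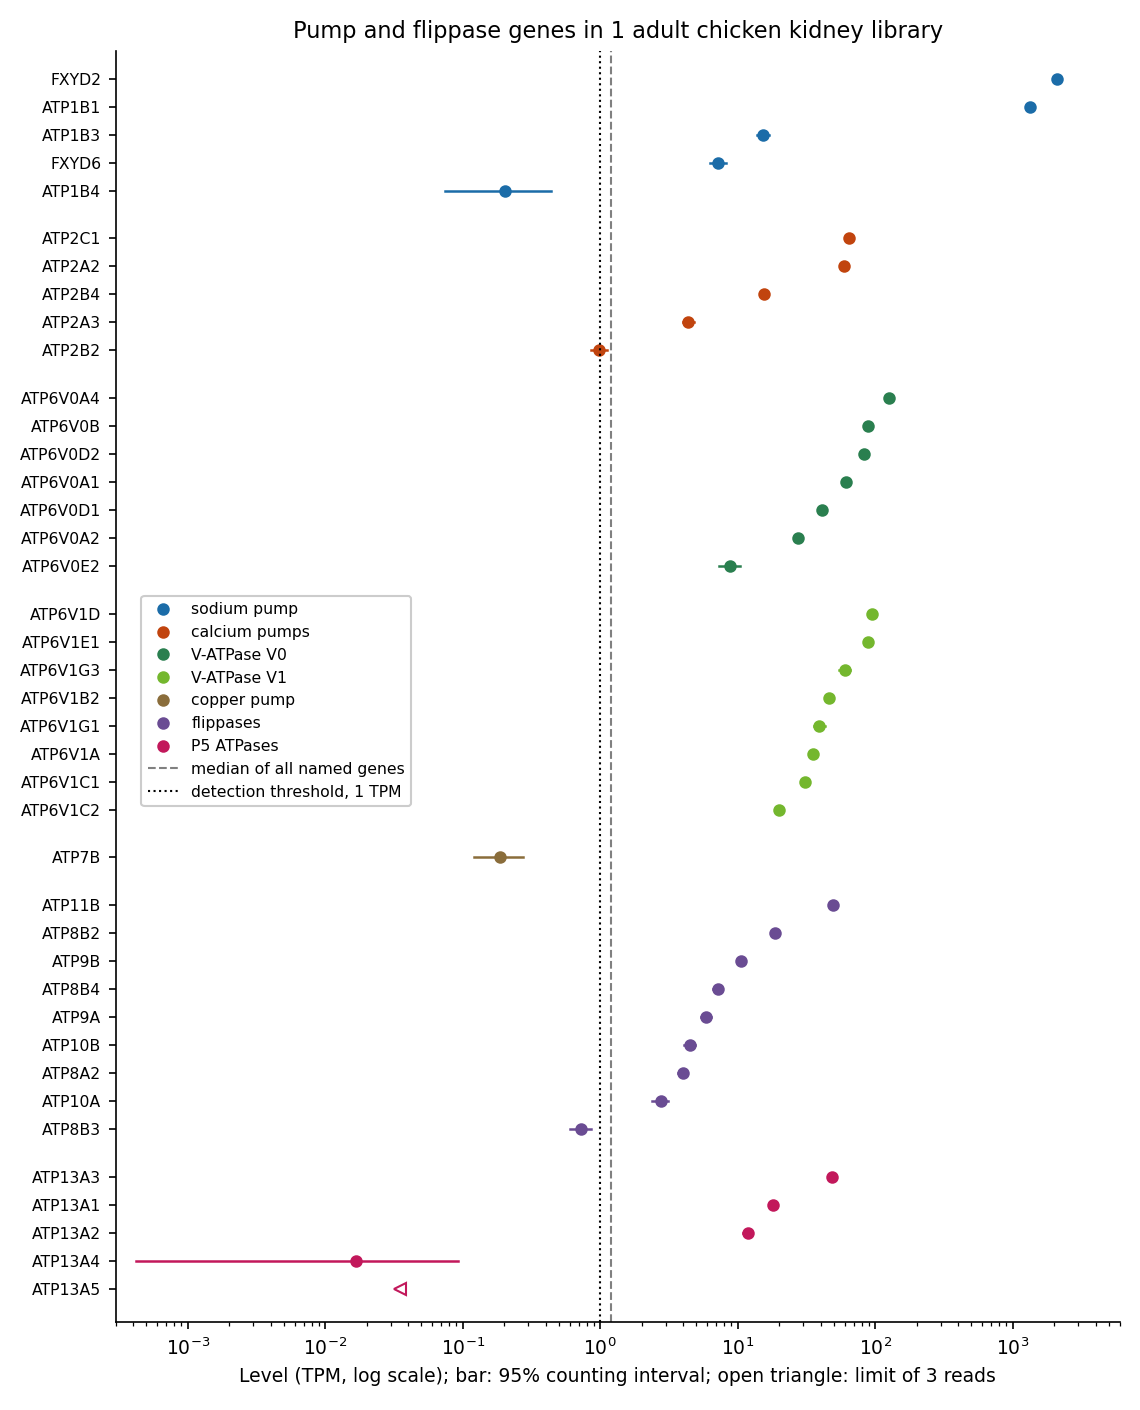
Level of each member in TPM on a log axis, grouped by family, with the 95% counting interval as a bar. The open triangle for ATP13A5 is the level of 3 reads on its longest row. FXYD2 and ATP1B1 stand at 2088 and 1328 TPM, the V-ATPase members lie between 8.78 and 126 TPM, and 6 members lie left of the dotted threshold at 1 TPM.

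The measured sodium pump genes, with no catalytic subunit among them, were led by the partner subunits FXYD2 and ATP1B1. FXYD2, the gamma subunit that tunes the pump's affinity for its ions, stood at 2088 TPM (2040 to 2138). ATP1B1, the beta subunit that carries the catalytic subunit to the cell surface, stood at 1328 TPM (1315 to 1342). These levels lay above 99.92% and 99.87% of all named genes. ATP1B1 drew 37133 reads, the most of any member, and FXYD2 drew 6986.

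The order of FXYD2 and ATP1B1 depended on how length was counted. With the deposited effective lengths FXYD2 stood 1.57 times (1.53 to 1.61) as high as ATP1B1, and with annotated lengths 0.892 times (0.869 to 0.915). The main FXYD2 row, of 394 bases, has an effective length of 196.9 bases, whereas the ATP1B1 row, of 1965 bases, has one of 1766.4 bases. This pair was chosen after the values were seen, and which of both transcripts is the more abundant is not settled by this table.

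The remaining sodium pump genes stood far lower. ATP1B3, another beta subunit, stood at 15.2 TPM (13.8 to 16.8), and ATP1B1 was 87.3 times (79.0 to 96.5) as high. FXYD6, another small modulator of the pump, stood at 7.24 TPM (6.32 to 8.26). FXYD2 and FXYD6 are neighbours in the GRCg7b gene table and carry the same strand sign in the deposited one, yet FXYD2 was 288 times (252 to 331) as high, or 162 times (142 to 186) with annotated lengths. ATP1B4, which in placental mammals is a protein of the muscle nuclear envelope, had 6 reads and stood at 0.203 TPM (0.0745 to 0.442).

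Relatives and regulators of the sodium pump outside the name rule were also read. Of 9 listed genes 7 had a row and 4 were detected, beside 70.5% of genes whose symbol does not start with LOC. The list median was 1.06 TPM, beside 6.04 TPM over such genes. SGK1, a kinase induced by aldosterone in mammals, stood at 359 TPM, and NEDD4L, the ubiquitin ligase that SGK1 restrains, at 87.2 TPM. ATP12A, the catalytic subunit of the non-gastric proton-potassium pump, stood at 9.14 TPM (8.37 to 9.95), and NKAIN4, a pump-interacting membrane protein, at 1.06 TPM. NKAIN1 had 6 reads, and ATP4B, the beta subunit of the gastric proton pump, and NKAIN2 had none.

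Among the 5 calcium pumps measured, ATP2C1 and ATP2A2 stood highest. Other calcium pump genes are not analysed here, so this ranks genes and not organelles. ATP2C1, the Golgi pump that carries calcium and manganese, stood at 64.6 TPM (62.3 to 67.0), and ATP2A2, the widely used pump of the endoplasmic reticulum (SERCA2), at 59.0 TPM (58.1 to 59.99). Together they held 85.5% of the summed TPM of these 5 genes. ATP2A2 drew 15073 reads against 2986 for ATP2C1, but its only row is 16330 bases long. Reads from a shorter ATP2A2 transcript would be divided by this length all the same, and the table has no other named row to tell them apart. ATP2C1 was 1.09 times (1.05 to 1.14) as high as ATP2A2 over all rows and 0.809 times (0.773 to 0.845) when its most abundant row alone was used, so their order is not settled either.

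The plasma membrane pump ATP2B4 stood at 15.5 TPM (14.9 to 16.2), with all reads on its row of 8433 bases. ATP2B2, which in mammals is known from neurons and inner ear hair cells, stood at 0.982 TPM (0.851 to 1.13), an interval that includes the threshold. ATP2B4 was 15.8 times (13.7 to 18.4) as high as ATP2B2. ATP2A3, the SERCA3 pump of blood cells and some epithelia in mammals, stood at 4.38 TPM (3.99 to 4.81), and ATP2A2 was 13.5 times (12.3 to 14.8) as high.

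Partners of the calcium pumps were detected in 10 of 11 cases, out of 15 listed, beside 70.5% of genes whose symbol does not start with LOC. The median of these partners was 8.80 TPM, beside 6.04 TPM over such genes, and 6 of the partners reached 5 TPM. With a median of 6.04 TPM, most such genes reached 5 TPM too. The calcium sensor CALM2 stood at 351 TPM. BSG, a glycoprotein that escorts plasma membrane calcium pumps and monocarboxylate transporters, stood at 342 TPM. Of the channels that release calcium from the endoplasmic reticulum, the inositol trisphosphate receptors ITPR2, ITPR1 and ITPR3 stood at 54.8, 13.3 and 2.98 TPM, and the ryanodine receptors RYR3 and RYR2 at 1.33 and 0.268 TPM. The SERCA inhibitor SLN, a muscle peptide, stood at 2.62 TPM from 23 reads.

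All 15 measured V-ATPase genes were detected, beside 70.5% of genes whose symbol does not start with LOC. Of the 15, 14 stood above 10 TPM (93.3%), beside 40.3% of such genes. The 15 had a median of 45.9 TPM, beside 6.04 TPM over such genes. The median was 61.0 TPM over the 7 genes of the membrane sector V0 and 42.5 TPM over the 8 of the cytosolic sector V1. By the most abundant row alone these were 41.0 and 42.5 TPM, so the order of the sectors depended on the counting of rows. Some V-ATPase genes of the GRCg7b table are not analysed here. In mammals several subunits exist as a widely expressed isoform and as one found in few tissues, the kidney among them. Only subunits a, d, C and G were measured as more than 1 isoform, and subunit B as ATP6V1B2 alone. For subunits a, d and G the isoform of few tissues was the higher in TPM in this chicken kidney, and for subunit C it was the lower. For G and C the order in reads, without allowance for length, was the reverse.

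ATP6V0A4 led the V0 sector. It encodes a4, the isoform of the proton-conducting subunit that intercalated cells use in mammals and whose loss causes distal renal tubular acidosis in humans. It stood at 126 TPM (122 to 129), above 97.45% of named genes. ATP6V0A1, a widely expressed counterpart, stood at 61.0 TPM (58.8 to 63.2), and ATP6V0A2, the Golgi and endosome isoform, at 27.6 TPM (26.0 to 29.3). TCIRG1, which encodes the a3 isoform of lysosomes and osteoclasts and is no member by name, stood at 16 TPM. ATP6V0A4 was 2.06 times (1.97 to 2.15) as high as ATP6V0A1, 4.54 times (4.26 to 4.85) as high as ATP6V0A2 and 7.85 times (7.24 to 8.52) as high as TCIRG1. Of the TPM of all 4 isoforms together, ATP6V0A4 held 54.6% (53.6 to 55.5).

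The lead of ATP6V0A4 over ATP6V0A1 depended on the counting of rows. With the most abundant row of each gene it was 3.998-fold, with ATP6V0A1 spread over 6 rows with reads and 45.7% of its TPM on the highest. The same setting gave 5.95 (5.50 to 6.44) over ATP6V0A2 and 14.8 (13.2 to 16.6) over TCIRG1. Of these 6 rows 2 are non-coding, and without them the ratio was 2.28. Of ATP6V0A4, the row of 3222 bases held 88.8% of TPM and that of 2660 bases 11.2%.

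Subunit d, which couples the rotor to the membrane ring, showed the same order. ATP6V0D2 stood at 82.2 TPM (78.6 to 86.0) and ATP6V0D1 at 41.0 TPM (38.9 to 43.1). ATP6V0D2 was 2.01 times (1.88 to 2.15) as high and held 66.7% (65.2 to 68.2) of their joint TPM. ATP6V0B, a member of the ring itself, stood at 88.3 TPM (83.2 to 93.7). ATP6V0E2, a small membrane subunit, stood at 8.78 TPM (7.31 to 10.5), the lowest of the V-ATPase members.

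In the V1 sector, the isoforms of subunit G resembled those of a and d, and those of subunit C did not. ATP6V1G3, a peripheral stalk subunit restricted largely to kidney in mammals, stood at 59.96 TPM (54.4 to 66.0) from 423 reads. Its counterpart ATP6V1G1 stood at 39.2 TPM (35.8 to 42.8) from 500 reads. ATP6V1G1 thus drew more reads, and the higher level of ATP6V1G3 rests on its effective length of 445.7 bases against 806.4. ATP6V1G3 was 1.53 times (1.34 to 1.75) as high, or 1.32 times with annotated lengths, and it held 60.5% (57.3 to 63.6) of their joint TPM.

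ATP6V1C2, an isoform of the subunit that regulates the joining of V1 to V0, stood at 19.9 TPM (18.5 to 21.3). ATP6V1C1, the widely expressed form, stood at 30.8 TPM (28.6 to 33.0). ATP6V1C2 was thus 0.646 times (0.585 to 0.713) as high and held 39.2% (36.9 to 41.6) of their joint TPM. The reads of ATP6V1C2 were split over 7 of its 10 rows, and with the most abundant row of each gene the ratio was 0.342. In all, ATP6V1C2 drew 833 reads against 770 for ATP6V1C1, so its lower level rests on its longer rows.

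The V1 subunits measured as a single isoform differed from each other as well. ATP6V1D, part of the rotor stalk, stood at 94.0 TPM (89.8 to 98.4), and ATP6V1E1, of the peripheral stalk, at 88.3 TPM (84.0 to 92.8), so that their intervals overlapped. ATP6V1B2, the nucleotide-binding subunit of most tissues, stood at 45.9 TPM (43.9 to 47.9), and the catalytic ATP6V1A at 35.1 TPM (33.6 to 36.6). A and B form the catalytic head together in equal number, and ATP6V1B2 was higher than ATP6V1A with intervals that did not overlap. Summed over measured isoforms, and leaving out subunit e, the level per subunit ranged between 35.1 TPM for A and 230 TPM for a. The value for a sums 4 genes, TCIRG1 among them, whereas A is 1 gene. Subunit e, measured as ATP6V0E2 alone, stood below this range at 8.78 TPM.

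**Figure D2:**
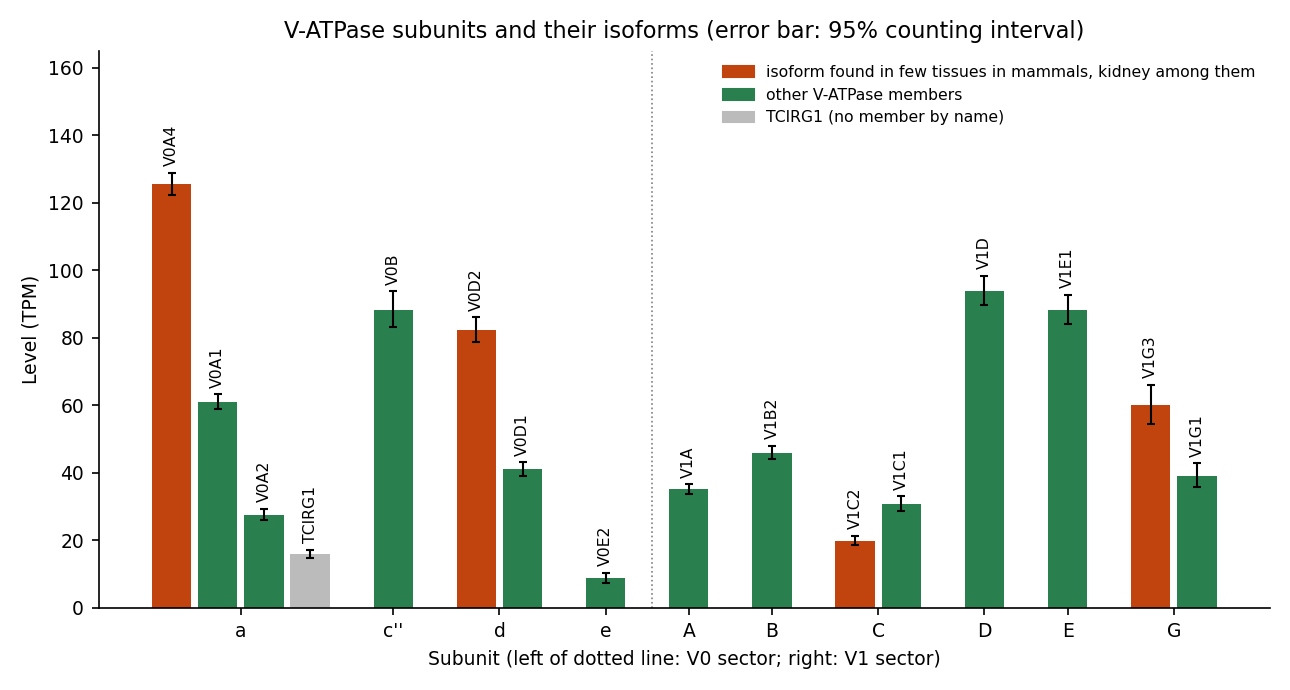
Level in TPM of each measured V-ATPase gene, grouped by subunit, with V0 left and V1 right of the dotted line and 95% counting intervals as error bars. The orange bars, isoforms found in few tissues in mammals, are the tallest of their subunit for a (126 TPM), d (82.2 TPM) and G (59.96 TPM) and the shorter for C (19.9 TPM).

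Accessory and assembly factors of the V-ATPase were detected in 9 of 9 cases, out of 17 listed, beside 70.5% of genes whose symbol does not start with LOC. The median of these factors was 34.6 TPM, beside 6.04 TPM over such genes. The accessory subunits ATP6AP1 and ATP6AP2 stood at 177 and 161 TPM, above every V-ATPase member, and ATP6AP2 is also called the prorenin receptor. TBC1D24, a TLDc protein, stood at 49.8 TPM, and ROGDI, a subunit of the complex that reassembles the pump, at 40.6 TPM. VMA21, the assembly chaperone of V0, stood at 34.6 TPM. Of transcription factors that act upstream of V-ATPase genes, all 4 were detected. MITF stood at 37.3 TPM, FOXI1, which specifies intercalated cells in mammals, at 27.3 TPM, TFEB at 11.8 TPM and TFE3 at 5.77 TPM.

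Cells other than intercalated cells also use these isoforms in mammals. Markers of intercalated cells and osteoclasts are given here, and those of the proximal tubule and other cell types further below. Of 9 measured intercalated cell markers 8 were detected, led by the carbonic anhydrase CA2 at 580 TPM and the ammonia channel RHCG at 290 TPM. The chloride-bicarbonate exchangers SLC4A1 and SLC26A4 stood at 37.2 and 21.2 TPM. The receptor KIT stood at 4.02 TPM, the exchanger SLC4A9 at 3.98 TPM and the ammonia transporter RHBG at 2.57 TPM, and CA12 had no reads. The median was 21.2 TPM, and 5 of the 9 markers reached 5 TPM. Among genes whose symbol does not start with LOC, the median was 6.04 TPM and 70.5% were detected. This median lies above 5 TPM, so most of these genes reached 5 TPM as well. Osteoclasts use ATP6V0D2 and TCIRG1, and 3 of the 4 measured osteoclast markers were detected. These were CTSK at 6.73 TPM, ACP5 at 2.62 TPM and CALCR at 1.02 TPM, while DCSTAMP had 5 reads, so that 1 of the 4 reached 5 TPM. The part of any cell type in the V-ATPase levels was not tested. In a bulk sample, fewer cells of a type and less RNA per cell cannot be told apart.

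The copper pump ATP7B, which loads ceruloplasmin and exports copper in liver and is mutated in Wilson disease, stood at 0.186 TPM (0.120 to 0.274). It had 25 reads, which lay on 2 of its 12 rows. ATP7B was the only copper pump measured, and the other ATP7 gene of the GRCg7b table is not analysed here. Other genes of copper handling were present at higher levels. All 8 with a row, of 11 listed, passed the threshold, beside 70.5% of genes whose symbol does not start with LOC. The list median was 19.8 TPM, beside 6.04 TPM over such genes. COX17, the copper chaperone of mitochondria, stood at 103 TPM, and ATOX1, the chaperone that hands copper to this pump, at 102 TPM. The metallothionein MT3 was listed at 459 TPM from 171 reads, on a row of 192 bases with an effective length of 23.5 bases. Removing rows under 300 bases drops MT3, and 7 genes were then detected. The copper importer SLC31A1 stood at 20.5 TPM. CP, the ceruloplasmin gene, stood at 2.73 TPM.

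The 9 flippases measured are not the whole family, and other flippase genes of the GRCg7b table are not analysed here. Of the 9 measured, 8 were detected (88.9%), beside 70.5% of genes whose symbol does not start with LOC. ATP11B, ATP8B2 and ATP9B stood above 10 TPM (33.3%), beside 40.3% of such genes. The flippase median was 5.88 TPM, beside 6.04 TPM over such genes. ATP11B, a flippase of recycling endosomes, stood highest of these 9 at 49.6 TPM (48.2 to 51.0) and held 47.8% of their summed TPM. By the most abundant row alone it stood at 16.7 TPM, below ATP8B2 at 18.6 TPM, so that its top rank depended on the counting of rows. Its reads were spread over 6 of 12 rows. The rows of 9797 and 4772 bases each held 33.8% of its TPM and the row of 5517 bases 23.4%.

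The ATP8 members followed at lower levels. ATP8B2, a flippase of phosphatidylcholine, stood at 18.6 TPM (17.6 to 19.7), and ATP8B4 at 7.17 TPM (6.64 to 7.73). ATP8B2 was 2.60 times (2.37 to 2.86) as high, or 4.75 times (4.23 to 5.36) by the most abundant row. ATP8A2, known from photoreceptors and neurons in mammals, stood at 3.97 TPM (3.65 to 4.30). ATP8B3, known from sperm in mice, stood at 0.720 TPM (0.599 to 0.859), below the threshold.

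ATP9B and ATP9A, which work at the Golgi and endosomes without a beta subunit, stood at 10.6 TPM (9.82 to 11.3) and 5.88 TPM (5.45 to 6.35). ATP9A was 0.557 times (0.502 to 0.619) as high as ATP9B, or 0.890 times (0.788 to 1.005) by the most abundant row, an interval that includes 1. ATP10A, a flippase of phosphatidylcholine, stood at 2.75 TPM (2.40 to 3.14) and ATP10B, which also moves glucosylceramide, at 4.49 TPM (4.09 to 4.93). ATP10A was 0.612 times (0.518 to 0.720) as high as ATP10B, or 0.827 times (0.694 to 0.985) by the most abundant row.

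The beta subunit TMEM30A, which most flippases need in order to leave the endoplasmic reticulum, stood at 74.3 TPM (71.8 to 76.9). The other members of its family on the list are not analysed here. Genes that move lipids in the opposite direction or in both were listed as well. Of these, 8 of 11 passed the threshold, beside 70.5% of genes whose symbol does not start with LOC. The list median was 5.01 TPM, beside 6.04 TPM over such genes. PLSCR1 stood at 48.6 TPM, and VMP1 and TMEM41B, scramblases of the endoplasmic reticulum, at 44.5 and 28.9 TPM. The exporter ABCA1 stood at 19.8 TPM. Of the scramblases that expose phosphatidylserine, ANO6 stood at 5.84 TPM and XKR8 at 5.01 TPM. The other XKR genes on the list stood lower, XKR6 at 3.44 TPM, XKR9 at 1.24 TPM and XKR4 at 0.865 TPM, below the threshold.

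Of the 5 P5 ATPases, ATP13A1, ATP13A2 and ATP13A3 were detected (60%), beside 70.5% of genes whose symbol does not start with LOC. ATP13A3, an endosomal carrier of polyamines, stood at 48.3 TPM (47.1 to 49.6) and held 61.7% of the summed TPM of the P5 ATPases. ATP13A1, which removes misplaced membrane proteins at the endoplasmic reticulum, stood at 18.2 TPM (17.1 to 19.3), and ATP13A2, the lysosomal polyamine exporter, at 11.8 TPM (11.01 to 12.7). ATP13A3 was 4.09 times (3.79 to 4.41) as high as ATP13A2 and 2.66 times (2.49 to 2.84) as high as ATP13A1. By the most abundant row the lead over ATP13A1 was 1.42-fold (1.32 to 1.53). ATP13A2 was 0.650 times (0.592 to 0.715) as high as ATP13A1, or 0.260 times by the most abundant row, since its reads lay on 5 of 11 rows.

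ATP13A4 and ATP13A5, neighbours in the GRCg7b gene table, were at the bottom of all members. ATP13A4 had 1 read over 4 rows, or 0.0166 TPM (0.000421 to 0.0926). ATP13A5 had no read over 6 rows, where 3 reads on its longest row would have been 0.0347 TPM, and more on a shorter row. The ratio of ATP13A3 to ATP13A4 was 2906, with a counting interval of 521 to 114777 that rests on this 1 read.

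The members differed in how their reads were spread over annotated transcripts. They had 138 rows, of which 83 drew reads. For 16 members there was a single row, and for 18 more than 1 row had reads. Among these 18, the highest row held under 90% of the gene's TPM in 14 and under 50% in ATP11B, ATP13A2 and ATP6V0A1. The rows of 7952 and 7852 bases of ATP13A3 held 50.3% and 47.5%. In ATP2C1 the row of 3110 bases held 73.9%, and in FXYD2 the row of 394 bases held 95.4%. Of 7 non-coding rows 2 drew reads, both of ATP6V0A1.

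**Figure D3:**
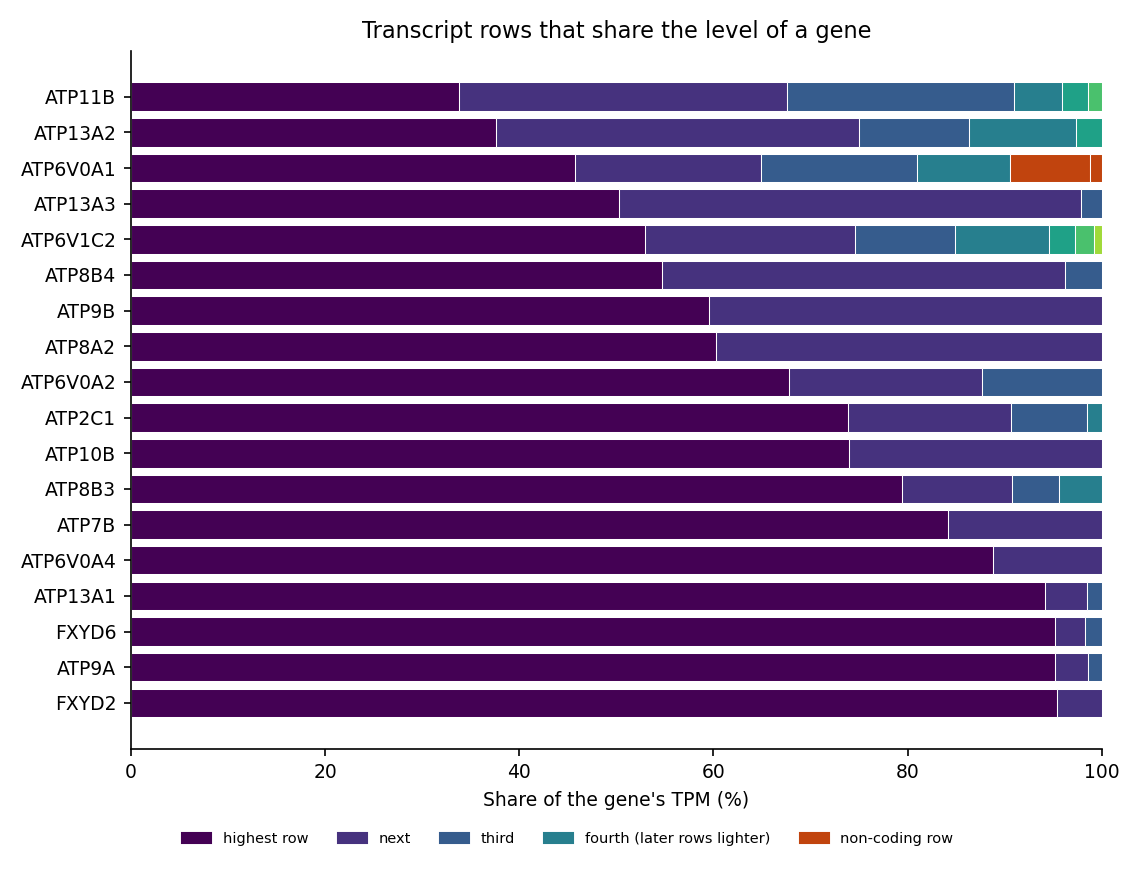
Share of each gene's TPM on its transcript rows, in %, for the 18 members with reads on more than 1 row, with rows drawn in falling order of TPM and non-coding rows in orange. ATP11B, ATP13A2 and ATP6V0A1 at the top have no row above 50%, while FXYD2, ATP9A, FXYD6 and ATP13A1 at the bottom have 1 row above 90%.

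Salmon divides a read that fits several rows, so a read total that is not whole shows sharing with rows outside the gene. The totals of 17 members were whole within 0.01 reads, among them ATP6V1G3, ATP6V0D1, ATP6V0A2, ATP2A3 and FXYD6. For the other 23, FXYD2, ATP1B1, ATP2A2 and ATP6V0A4 among them, some reads were shared with other rows. Unnamed assembled transcripts drew 25.9% of the library's reads, and reads of a member that went to such a row are not in its level.

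The labelled tissue was checked against its markers. For comparison, 70.5% of genes whose symbol does not start with LOC were detected, with a median of 6.04 TPM over such genes. The 4 measured proximal tubule markers stood between 998 and 4055 TPM, 7 of 7 distal tubule and thick ascending limb markers between 30.3 and 366 TPM, and 6 of 7 principal cell markers were detected. Podocyte, endothelial and stromal markers were all detected where measured (3, 4 and 6 genes), with medians of 39.3, 26.8 and 24.1 TPM. Of 5 erythroid markers 4 were detected, with a median of 197 TPM, but the list was split. The globins HBA1, HBBA and HBM stood at 486, 448 and 197 TPM. RHAG stood at 4.91 TPM and EPB42 at 0.659 TPM, below the threshold. All 5 leukocyte markers were detected, with a median of 18.1 TPM. Of skeletal muscle markers 3 of 4 were detected (median 6.60 TPM, highest ACTA1 at 10.2 TPM), and of cardiac muscle markers 0 of 3 (highest MYH7 at 0.270 TPM). Neuron and glia markers passed in 2 of 6 cases (median 0.192 TPM), led by the myelin gene MBP at 38.0 TPM. Liver markers passed in 2 of 4 cases (median 4.53 TPM), led by APOH at 50.4 TPM. Adrenal markers passed in 2 of 5 cases (median 0.0811 TPM), led by CYP17A1 at 4.68 TPM. The part of these cells in the members' levels was not tested.

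**Figure D4:**
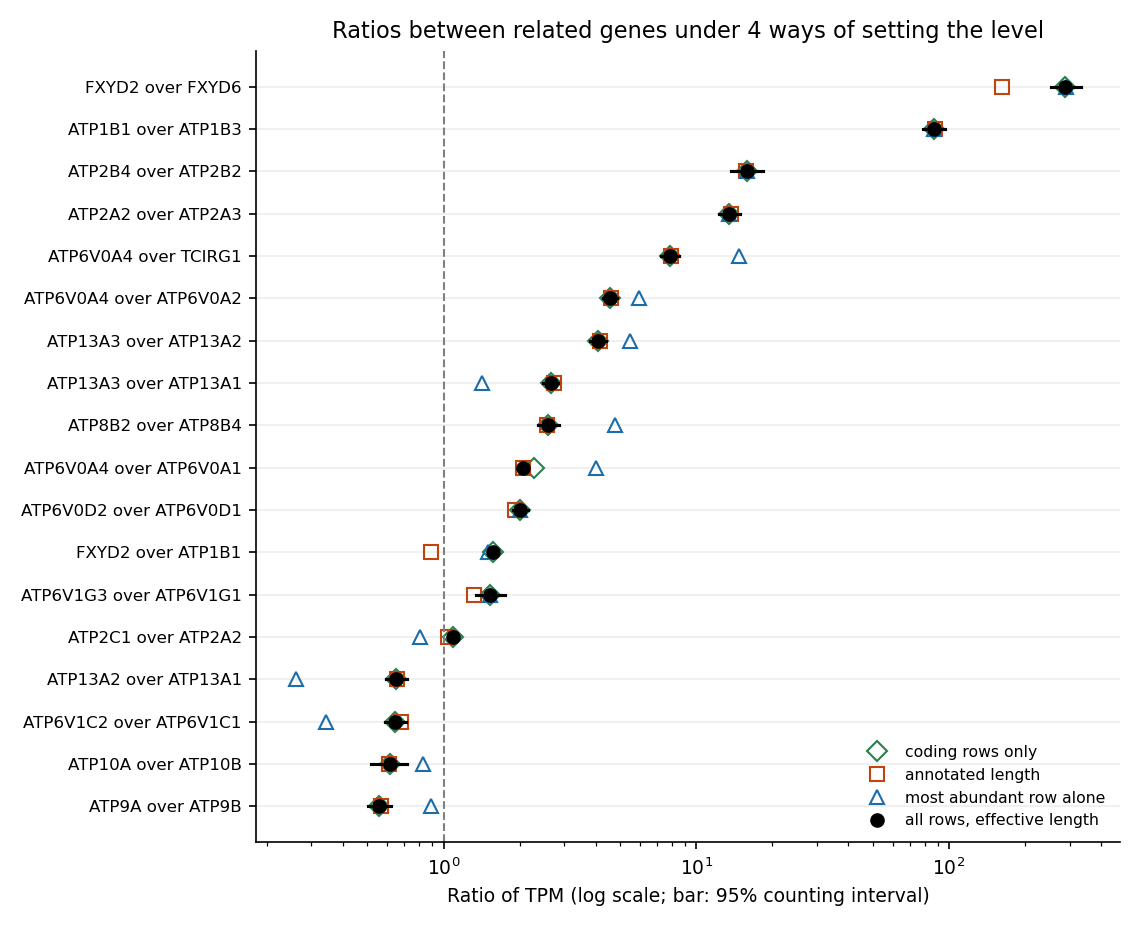
Ratio of TPM between related genes on a log axis, from all rows with effective length (filled circles with 95% counting intervals) and under 3 other ways of setting the level (open symbols). The pairs FXYD2 over ATP1B1 and ATP2C1 over ATP2A2 have symbols on both sides of the dashed line at 1, and the V-ATPase pairs stay on 1 side.

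Across all 19 pairs, the ratio lay on the other side of 1 in 2 cases under an alternative setting, namely FXYD2 over ATP1B1 and ATP2C1 over ATP2A2. The orders within V-ATPase subunits, within the P5 ATPases and of ATP1B1 over ATP1B3 were kept under the most abundant row and annotated length. They were also kept with coding rows, a setting that among the members could change only ATP6V0A1. All these settings divide reads by row length. By reads alone, ATP6V1G3 stood at 0.846 times ATP6V1G1 and ATP6V1C2 at 1.08 times ATP6V1C1, the reverse of their orders in TPM. Removal of rows under 300 bases multiplies every member alike, so it could not change any ratio.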

How the data were processed

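The values come from 1 transcript table of adult kidney total RNA; the library followed a TruSeq protocol, per the labels' protocols. The authors' transcript levels were estimated with Salmon on galGal6, per the submitters' processing notes, and its version is not stated there. The deposited TPM sum to 1000000 over all rows, and the deposited estimated counts are reads that Salmon divided among rows. The table also gives annotated and effective length in bases, per the file headers. TPM and reads were summed per gene over rows carrying its symbol. Detected means at least 1 TPM and 3 reads. Intervals are exact Poisson intervals of the rounded reads scaled to TPM, and exact conditional binomial intervals for ratios. They leave out the error of dividing shared reads, and without molecular identifiers the reads may repeat a molecule. A gene without reads has the level of 3 reads on its longest row as its limit. With 1 library no test was made.

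The members, lists and rules were chosen with earlier results of these data known. Of 24 pairs planned, 11 had both genes measured, and 8 were added after seeing the data (FXYD2 over ATP1B1 and FXYD6, ATP2C1 over ATP2A2, ATP6V0A4 over ATP6V0A2 and TCIRG1, ATP13A3 over ATP13A1 and ATP13A4, ATP8B2 over ATP8B4). By rule, the 4 highest members of each group, all in pairs and all without reads were named, and of each list the 4 highest and those without reads, except that cell type markers are mostly given as counts and medians. Genes named beyond this were chosen after seeing their values. The RefSeq table of GRCg7b, a build other than galGal6, served for names and neighbours only; all 40 members were found in it. The 2 genes set aside are not reported here. Interval functions were tested on simulated counts. Python 3.11.15, pandas 2.3.3 and SciPy 1.17.1 were used.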

Additional observations from a re-analysis of the deposited data

How the results depend on the processing

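No paired analysis was possible because 1 library was analysed. The number of members detected was 34, and 30 to 38 under 7 alternatives. The share over all named genes was not computed under these alternatives. Medians moved with the TPM scale. Removing rows under 300 bases multiplied every member by 1.55, and the median over all named genes was then 1.78 TPM. With these rows removed the medians were 23.6 TPM (sodium pump), 24.1 (calcium pumps), 94.4 (V0), 65.9 (V1), 71.1 (V-ATPase), 0.288 (copper pump), 9.11 (flippases) and 18.3 (P5). With annotated length they were 24.0, 26.8, 101, 66.2, 73.4, 0.321, 10.1 and 19.9 TPM in the same order, beside 1.89 TPM over all named genes. With the most abundant row alone V0 and the V-ATPase had 41.0 TPM each and V1 had 42.5 TPM, so V0 no longer stood above V1. Flippases then had 3.93 TPM and P5 ATPases 4.45 TPM, and with coding rows V0 had 55.2 TPM.

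Of the pairs, FXYD2 over ATP1B1 turned to 0.892 with annotated length and was 1.5 with the most abundant row. That row alone turned ATP2C1 over ATP2A2 to 0.809. It also gave 0.342 for ATP6V1C2 over ATP6V1C1, 3.998 for ATP6V0A4 over ATP6V0A1, 14.8 for ATP6V0A4 over TCIRG1, 5.95 for ATP6V0A4 over ATP6V0A2, 4.75 for ATP8B2 over ATP8B4, 0.890 for ATP9A over ATP9B (0.788 to 1.005, which includes 1), 0.827 for ATP10A over ATP10B, 0.260 for ATP13A2 over ATP13A1, 1.42 for ATP13A3 over ATP13A1 and 5.46 for ATP13A3 over ATP13A2. ATP6V1G3 over ATP6V1G1 was 1.32 with annotated length, and ATP6V0A4 over ATP6V0A1 was 2.28 with coding rows. By construction, the most abundant row lowers genes whose reads lie on several rows, and ATP11B at 16.7 TPM was then below ATP8B2. Of 22 companion lists, the number detected moved by over 1.5 times in 5, all at a threshold of 5 TPM. There it was 6 for calcium pump partners, 5 for intercalated cells, 1 each for osteoclasts and for neurons and glia, and 0 for adrenal. Most genes whose symbol does not start with LOC also reached 5 TPM, as their median was 6.04 TPM. Counting error limits the levels of ATP13A4, ATP1B4 and ATP7B, with 1, 6 and 25 reads.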
